A study of Mus musculus with 10 samples.

Results

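The integrated stress response genes described here are 10 mouse genes, Atf4, Atf5, Ddit3, Chac1, Trib3, Asns, Xbp1, Ern1, Eif2ak3 and Ppp1r15a, out of 54308 genes in the quantified annotation. They were chosen with earlier results of these data known. Each was found by gene symbol, and the transcripts carrying that symbol were summed. All 10 passed the filter on low counts that kept 20836 genes. RNA-seq was run on lumbar dorsal root ganglia (DRG), which house the cell bodies of sensory neurons, from wild-type C57BL/6 mice aged 6 to 8 weeks. The left sciatic nerve was either cut through (axotomy) or exposed and left whole (sham, in other animals), and L4 and L5 DRG of that side were taken 24 h later. Each sex had 2 sham and 3 axotomy libraries, and each library came from the pooled DRG tissue of 2 mice, so values of single animals are not seen.

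The integrated stress response is a pathway in which several kinases, among them PERK (Eif2ak3), phosphorylate the translation factor eIF2 when a cell is short of amino acids, hit by viruses or burdened with unfolded protein in the endoplasmic reticulum (ER). Most translation then slows, while the mRNAs of the transcription factors ATF4, ATF5 and CHOP (Ddit3) are translated better and switch on genes for amino acid supply, antioxidant defence and, under lasting stress, cell death. IRE1 (Ern1) starts a parallel ER branch by splicing the mRNA of the transcription factor XBP1, and in sensory neurons ATF3, a partner and target of this network, is a classical marker of axon injury. The libraries measure RNA only, and neither phosphorylation of eIF2 nor protein was measured here.

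Library totals ran from 55258476 to 90111671 estimated counts, so that 3 counts correspond to 0.0333 to 0.0543 CPM. Values per library are given as normalised CPM, which are CPM after scaling for library composition and for the length of the transcripts in use. Differences are log2FC ± SE of axotomy over sham from edgeR's quasi-likelihood test, with p values adjusted over all genes tested (padj), and genes under a padj of 0.1 count as up- or downregulated (DEGs). All 10 sensory neuron markers were present in every library, and their summed level was 5683 to 8808 normalised CPM. That sum was lower after axotomy in both sexes (7777 to 8261 in female sham against 7003 to 7026, and 8421 to 8808 in male sham against 5683 to 7181), with 4 of the 10 markers downregulated in females and 7 in males. Summed macrophage markers were higher after axotomy in both sexes (59.4 to 70.9 against 73.1 to 96.4 in females, 47.2 to 51.3 against 94.1 to 172 in males). Of the 8 macrophage markers, only 1 was upregulated in females and all 8 were in males. Fibroblast markers were lower in females (851 to 918 against 703 to 807) and higher in males (681 to 693 against 972 to 1870), with 2 of 7 downregulated in females and all 7 upregulated in males. In whole ganglia, fewer cells of a type and less RNA per cell cannot be told apart, and the part of these shifts in the results below was not tested.

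Axotomy upregulated 8 of the 10 integrated stress response genes in females and the same 8 in males, and downregulated none in either sex. The 8 were Atf4, Atf5, Ddit3, Chac1, Trib3, Asns, Xbp1 and Ppp1r15a, whereas Ern1 and Eif2ak3, which encode the ER sensors IRE1 and PERK, did not pass the test in either sex. For comparison, 20.2% of all genes tested were DEGs in females (10.5% up, 9.7% down) and 42% in males (22.6% up, 19.4% down). Since the 10 genes were chosen with earlier results of these data known, the difference from these shares is a description, not a test. The median log2FC over the 10 genes was 0.51 in females and 0.62 in males, against 0.00 and 0.04 over all genes tested. At an unadjusted p under 0.05, 9 of the 10 were higher in females and 8 in males, and none was lower. The share of all genes at that p was not counted, here or for the unadjusted counts below, so these counts have no comparison. DESeq2 called 9 of the 10 in females and 8 in males, again none of them lower. Of all genes, it called 26.5% and 41.5% in either direction. Every axotomy library lay above every sham library for 9 of the 10 genes in females and for 8 in males. Over all genes tested, axotomy lay wholly above sham for 26.2% in females and 30.4% in males, and the groups were apart in either direction for 52.2% and 57.7%. With only 2 sham libraries a sex, the female calls rest on both of them: without either female sham library, 0 of the 10 genes passed in females (6 without female sham 1 and 7 without female sham 2 at an unadjusted p under 0.05), although all kept their direction, and the DEGs over all genes fell from 4216 to 1483 without female sham 1 and to 838 without female sham 2.

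**Figure D1:**
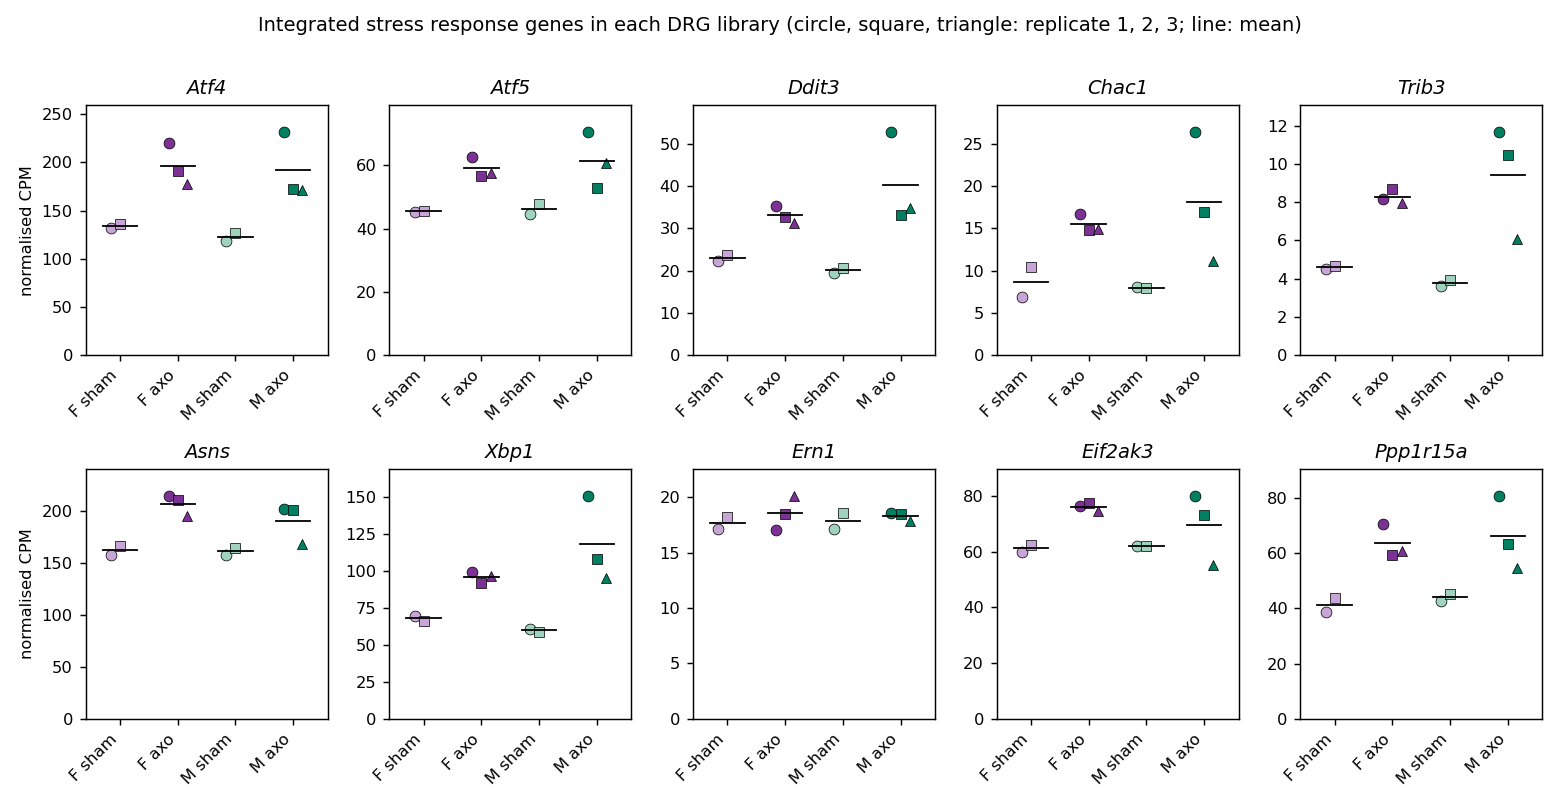
Normalised CPM (vertical axes, from 0, 1 scale per gene) of the 10 genes in each library of the 4 groups (F, female; M, male; axo, axotomy), with 1 point per library and a line at the group mean. Axotomy libraries lie above the sham libraries of the same sex for 9 genes in females and 8 in males, and male axotomy 1 and male axotomy 3 lie far apart for Chac1, Trib3, Xbp1 and Eif2ak3.

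The transcription factors at the centre of the pathway rose in both sexes. Atf4, whose protein is the main effector of the pathway, was at 132 and 136 normalised CPM in female sham and at 220, 192 and 178 in female axotomy. It was at 119 and 127 in male sham and at 232, 172 and 171 in male axotomy. The groups did not overlap in either sex, the first axotomy library being the highest in each. Atf4 rose by a log2FC of 0.56 ± 0.13 in females (1.47-fold, padj = 0.0242) and 0.64 ± 0.14 in males (1.56-fold, padj = 0.00559). Of its counts, 97.1% to 97.9% per library came from its 1725-base transcript.

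Atf5, a related factor whose mRNA is translated under the same control, was at 45.4 and 45.6 normalised CPM in female sham and 62.6, 56.8 and 57.7 in female axotomy. In males it was at 44.7 and 47.7 in sham and 70.5, 52.9 and 60.9 after axotomy, again without overlap. Its log2FC of 0.38 ± 0.11 in females (padj = 0.0432) and 0.41 ± 0.11 in males (padj = 0.0137) was among the smaller changes that passed. Ddit3 encodes CHOP, a factor linked to cell death under lasting ER stress, and was at 22.4 and 23.8 in female sham and 35.4, 32.8 and 31.3 in female axotomy. Male sham libraries held 19.6 and 20.7, and male axotomy libraries 52.8, 33.2 and 34.9 normalised CPM. Both sexes were separated from their sham, and male axotomy 1 stood above all other libraries. Ddit3 rose by a log2FC of 0.52 ± 0.17 in females (padj = 0.0704) and by 1.003 ± 0.173 in males (padj = 0.00247). The symbol Ddit3 covers a further annotated gene of 1 transcript with 105 bases, which had 0 counts in all libraries.

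Among the targets, Chac1 and Trib3 showed the largest fold changes of the 10 genes in both sexes. Chac1, an enzyme that breaks down glutathione, was at 6.93 and 10.4 normalised CPM in female sham against 16.7, 14.8 and 14.9 in female axotomy. Male sham libraries were close together at 8.08 and 7.93, while male axotomy libraries spread over 26.4, 16.9 and 11.2. No axotomy library reached down to its sham group, yet the spread made Chac1 the least certain of the female calls, with a log2FC of 0.84 ± 0.30 (padj = 0.0956) against 1.18 ± 0.30 in males (padj = 0.0141). Trib3, a pseudokinase that restrains ATF4 and CHOP and is itself induced by them, had the lowest level per length of the 8 and rose from 4.52 and 4.68 to 8.17, 8.67 and 7.97 normalised CPM in females. In males it went from 3.64 and 3.95 to 11.7, 10.5 and 6.08, with male axotomy 3 well below the other axotomy libraries but above both sham libraries. Its log2FC of 1.31 ± 0.23 in males (2.48-fold, padj = 0.00249) and 0.85 ± 0.22 in females (1.80-fold, padj = 0.0338) rested on 261 to 798 counts per library.

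Asns, asparagine synthetase, the textbook amino acid response gene, had the smallest change that passed. It was at 158 and 167 normalised CPM in female sham and 215, 211 and 196 in female axotomy. Male sham libraries were at 158 and 165, and male axotomy libraries at 202, 201 and 168. Male axotomy 3 was thus only just above the higher male sham library. The log2FC was 0.35 ± 0.09 in females (padj = 0.0305) and 0.24 ± 0.09 in males (padj = 0.0649), and the male call was lost under 9 of 17 alternative settings. Ppp1r15a encodes GADD34, the phosphatase subunit that takes the phosphate off eIF2 again and so closes the loop. It was at 38.7 and 43.7 in female sham and 70.7, 59.2 and 60.8 in female axotomy, and at 42.9 and 45.2 in male sham and 80.9, 63.2 and 54.8 in male axotomy. Neither sex showed overlap, and the changes were close in size, with a log2FC of 0.63 ± 0.15 in females (padj = 0.0207) and 0.59 ± 0.15 in males (padj = 0.0111).

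The promoter windows of these genes, 250 bases before to 50 after the annotated start (RefSeq, GRCm38.p6), were searched on both strands for the C/EBP-ATF response element (CARE, TGATGNAA), which ATF4 dimers are known to bind, for the cAMP response element (CRE, TGACGTCA) and for the ER stress response element (ERSE, CCAAT and CCACG with 9 bases between). All 10 genes had a window (Atf5 had 2). The bases just after the RefSeq start were found in a Gencode M21 transcript of the gene for all but Trib3 and Xbp1, so positions in those 2 hold for the RefSeq start only. CARE letters were found in 3 of the 10, Chac1, Trib3 and Asns, and in 3.97% of 32851 windows of all genes. CRE letters were found in Ppp1r15a and in 1.79% of all windows, and ERSE letters in none of the 10 and in 0.119% of all windows. Motif matches describe letters, not bound sites, and 4 of the 8 genes that rose had none in this window. The 4 windows with a match are shown, 5′ to 3′ on the strand of the gene, because they let the position of the element in each target be seen. Capitals mark the match, which reads in reverse on the shown strand in Chac1 (first base 193 before the start, window chr2:119350992-119351291, plus strand) and in Trib3 (first base at position 15 after the start, window chr2:152344011-152344310, minus strand), and forward in Asns (first base 23 before the start, window chr6:7693160-7693459, minus strand). The CRE of Ppp1r15a is its own reverse complement (first base 12 before the start, window chr7:45526219-45526518, minus strand).
Chac1: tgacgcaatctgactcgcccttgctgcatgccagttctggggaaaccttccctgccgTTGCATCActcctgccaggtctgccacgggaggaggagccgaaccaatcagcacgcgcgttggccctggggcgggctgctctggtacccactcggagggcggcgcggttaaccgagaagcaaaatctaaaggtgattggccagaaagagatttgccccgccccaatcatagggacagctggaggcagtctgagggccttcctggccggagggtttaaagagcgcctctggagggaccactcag
Trib3: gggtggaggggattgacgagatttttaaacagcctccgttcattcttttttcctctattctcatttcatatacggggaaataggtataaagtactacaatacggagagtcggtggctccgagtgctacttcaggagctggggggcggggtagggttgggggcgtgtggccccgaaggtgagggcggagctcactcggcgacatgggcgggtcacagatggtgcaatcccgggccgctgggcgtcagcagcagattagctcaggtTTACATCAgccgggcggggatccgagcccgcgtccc
Asns: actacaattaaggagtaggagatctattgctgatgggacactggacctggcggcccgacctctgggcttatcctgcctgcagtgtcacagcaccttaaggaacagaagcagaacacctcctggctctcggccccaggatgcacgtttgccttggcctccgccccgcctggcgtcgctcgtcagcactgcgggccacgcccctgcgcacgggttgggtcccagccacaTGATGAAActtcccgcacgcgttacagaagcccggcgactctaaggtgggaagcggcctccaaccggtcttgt
Ppp1r15a: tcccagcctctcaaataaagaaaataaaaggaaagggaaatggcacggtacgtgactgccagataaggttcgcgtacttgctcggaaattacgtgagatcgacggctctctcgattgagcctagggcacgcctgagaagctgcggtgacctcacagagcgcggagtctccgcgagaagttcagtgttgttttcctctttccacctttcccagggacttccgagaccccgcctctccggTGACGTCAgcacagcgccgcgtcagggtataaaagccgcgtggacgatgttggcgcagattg

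The transcription factor of the ER branch rose, while the ER sensors IRE1 and PERK did not pass the test. The difference between the factor and the sensors was not tested. Xbp1, whose protein drives chaperone and secretory genes, was at 69.6 and 66.5 normalised CPM in female sham and 99.2, 91.8 and 96.8 in female axotomy. In males it was at 61.1 and 58.7 in sham and at 151, 108 and 95.1 after axotomy. All axotomy libraries lay above their sham libraries, and male axotomy 1 was again the highest. Xbp1 rose by a log2FC of 0.50 ± 0.15 in females (padj = 0.0596) and 0.98 ± 0.16 in males (padj = 0.00187). XBP1 is also a factor of plasma cells, so plasma cell markers were read beside it. Their sum was 69.0 to 73.6 in female sham against 135 to 159 after axotomy and 65.1 to 73.8 in male sham against 92.0 to 133. Of the 6 markers, 1 was up in females, syndecan 1 (Sdc1, log2FC 1.57), which other cells express too and which made up most of the sum. In males 3 were up, Sdc1 (log2FC 0.94), the antibody light chain gene Iglc2 (from 0.0594 and 0.112 normalised CPM, near the level of 3 counts, to 0.304, 0.172 and 0.622) and the heavy chain gene Ighm (0.26). Jchain and Mzb1 did not pass in either sex, and Tnfrsf17 was too low to test. The part of plasma cells in the change of Xbp1 was not tested.

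IRE1 activates Xbp1 by cutting 26 bases out of its mRNA, which shifts the reading frame. In the reference transcript Xbp1-201 (Gencode M21, chromosome 11) 2 pairs of the loop letters CNGCAG lie 26 bases apart, and taking out the 26 bases between the cuts lengthens the longest reading frame for 1 of them, from 804 to 1116 bases. That stretch, transcript positions 800 to 855 with the 26 bases in capitals (positions 815 to 840), is printed because the splice itself is what the sensor does.
Xbp1-201: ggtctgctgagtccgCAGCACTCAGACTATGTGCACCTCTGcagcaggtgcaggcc
None of the 4 Xbp1 transcripts of that reference holds the joined sequence. In the quantified annotation, the 2129-base transcript Xbp1-201 took 93.073% to 95.005% of the Xbp1 counts in each library. A transcript of 1116 bases, Xbp1-205, took 0.04% to 0.89% (2.21 to 47.3 estimated counts). Its length equals that of the lengthened frame, but its sequence was not compared here, so the spliced form was not measured by these values. In sham libraries Xbp1-205 took 0.33% to 0.89% of Xbp1 counts and in axotomy libraries 0.04% to 0.46%, at counts too low to rank.

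Ern1, the sensor itself, was at 17.2 and 18.2 normalised CPM in female sham and 17.1, 18.5 and 20.2 in female axotomy. It was at 17.2 and 18.6 in male sham and 18.6, 18.5 and 17.9 in male axotomy. The groups overlapped in both sexes, with a log2FC of 0.07 ± 0.09 (padj = 0.645) in females and 0.04 ± 0.09 (padj = 0.798) in males. Eif2ak3 (PERK) was at 60.0 and 62.4 in female sham and 76.5, 77.3 and 74.5 in female axotomy, without overlap, yet its log2FC of 0.31 ± 0.12 missed the threshold (padj = 0.12). In males it was at 61.9 and 62.0 in sham and 80.2, 73.2 and 55.2 after axotomy, with a log2FC of 0.17 ± 0.12 (padj = 0.328). Male axotomy 3 fell below both sham libraries there, which otherwise happened only for Ern1 in female axotomy 1. Without that library Eif2ak3 passed in males (log2FC 0.31, padj = 0.00844) and in females (padj = 0.00905).

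**Figure D2:**
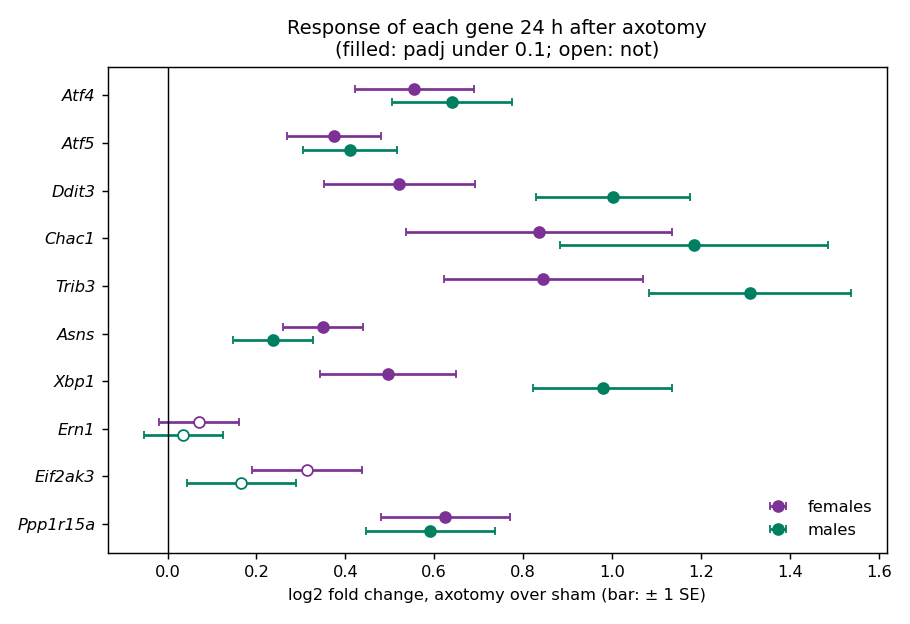
Log2FC of axotomy over sham (horizontal axis) for each gene in females and males, with bars of ± 1 SE, filled where padj was under 0.1 and open where it was not. The 8 genes that passed lie between 0.35 and 0.85 in females and between 0.24 and 1.31 in males, and Ern1 lies near 0 in both.

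For 9 of the 10 genes the SD was larger among male than among female axotomy libraries, Ern1 being the exception (0.419 against 1.56 normalised CPM). How often this held over all genes tested was not counted, so it is not shown to be particular to these genes. For Chac1 the SD was 7.68 normalised CPM in male axotomy (n = 3) and 1.11 in female axotomy (n = 3), and for Xbp1 29.2 and 3.79. Male axotomy 1 was the highest of all 10 libraries for Atf4, Atf5, Ddit3, Chac1, Trib3, Xbp1, Eif2ak3 and Ppp1r15a, whereas male axotomy 3 was the lowest male axotomy library for all of the 10 genes except Atf5 and Ddit3. That library also had the lowest sum of sensory neuron markers (5683) and the highest sums of macrophage (172), fibroblast (1870), meninges (454) and erythrocyte markers (3186 normalised CPM) of all libraries. The part of this makeup in its lower values was not tested. Without male axotomy 3, 9 of the 10 genes passed in females and 9 in males, against 24.6% and 39.3% of all genes.

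No difference between the sexes passed the test for any of the 10 genes. In the test of the male against the female response (interaction), 0.072% of all genes were called and 0 of the 10, with 1 at an unadjusted p under 0.05 and 0 by DESeq2. The share over all genes was not stable, at 3.12% by DESeq2 and 10.6% without male axotomy 2, where still 0 of the 10 passed. The 1 gene at an unadjusted p under 0.05 was Xbp1, where the male log2FC exceeded the female by 0.48 (95% interval 0.01 to 0.96, padj = 0.431). For Ddit3 the difference was 0.48 (−0.04 to 1.01) and for Trib3 0.47 (−0.22 to 1.15). The intervals for the others were narrower around 0 or, for Chac1, wide (−0.57 to 1.27). Atf4 had an interval of −0.33 to 0.50, Atf5 of −0.29 to 0.36, Asns of −0.39 to 0.17, Ppp1r15a of −0.48 to 0.41, Eif2ak3 of −0.53 to 0.23 and Ern1 of −0.32 to 0.24, so that differences of such sizes cannot be told from none. Between male and female sham, 0.0432% of all genes and 0 of the 10 were called, with 0 at an unadjusted p under 0.05 and 0 by DESeq2. After axotomy, 1.63% of all genes and 0 of the 10 were called, with 1 at an unadjusted p under 0.05 (Xbp1, log2FC 0.30, males higher) and 0 by DESeq2. Here the share over all genes was 7.56% by DESeq2 and 17.4% without male axotomy 2, again with 0 of the 10.

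Levels of different genes are compared here in TPM, which is per transcript length. Over the 4 sham libraries Asns was the highest (157 to 167 TPM), followed by Atf4 (134 to 151), Xbp1 (61.3 to 71.9), Atf5 (52.2 to 55.4) and Ddit3 (40.9 to 49.3). Ppp1r15a (25.2 to 29.7) and Eif2ak3 (24.1 to 25.5) overlapped, as did Ern1 (4.503 to 4.939) and Trib3 (3.79 to 4.82) at the foot of the order, below Chac1 (8.42 to 12.8). All other neighbours were apart in the sham libraries. Over the 6 axotomy libraries the order of the means changed in 3 places. Atf4 (159 to 219 TPM) stood above Asns (140 to 194), Ddit3 (60.1 to 92.9) above Atf5 (57.9 to 69.7), and Trib3 (5.21 to 10.2) above Ern1 (3.94 to 5.10), and of these 3 pairs only Trib3 and Ern1 had ranges apart.

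**Figure D3:**
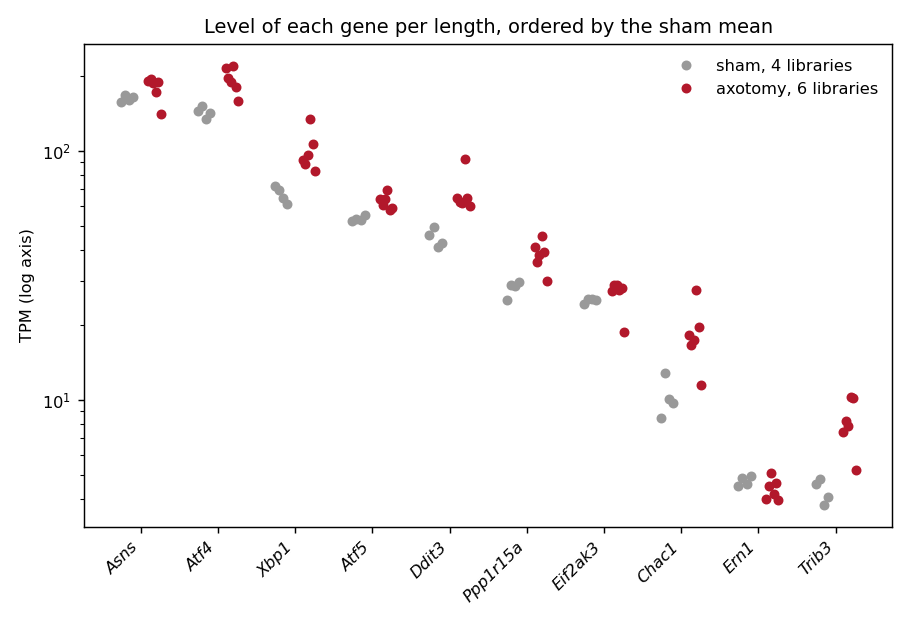
TPM on a log axis for each gene in the 4 sham and 6 axotomy libraries of both sexes, with 1 point per library and genes ordered by their sham mean. Asns and Atf4 lie above 100 TPM in all libraries, and Trib3 passes from the level of Ern1 in sham (3.79 to 4.82) to 5.21 to 10.2 after axotomy.

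Across the 10 libraries, which share the axotomy and sham groups, the 8 upregulated genes went together, with Pearson's r of log2(normalised CPM + 1) from 0.74 (Atf5 with Asns) to 0.98 (Ddit3 with Xbp1). Ern1 stood apart, with r of 0.23 to 0.40 with the other 9 genes, and Eif2ak3 was closest to Asns (r = 0.91). These values describe 10 libraries in 4 groups and are given without a test. The genes most like each upregulated gene were sought among the protein-coding genes tested, leaving out those with Gm or Rik symbols. Those most like Xbp1 were Hspa5 (r = 0.989), the ER chaperone BiP, Calr (0.983), calreticulin, and Taf15 (0.981). Most like Ppp1r15a were Slc3a2 (0.982), Slc2a1 (0.978) and Shisal2a (0.977), and most like Atf4 were Speer1 (0.991), Gadd45g (0.990) and Rit1 (0.989). For Ddit3 they were Mrgbp (0.988), Myd88 (0.985) and Slc35f5 (0.984), and for Atf5 Bex2 (0.984), Ptges3 (0.983) and Mrfap1 (0.982). Chac1 was most like Zbtb21 (0.982), Pim1 (0.982) and P4ha3 (0.981), Trib3 most like Khdc4 (0.991), Arid5a (0.990) and Ube2q2 (0.987), and Asns most like Prr13 (0.993), Akirin2 (0.992) and Rtn4 (0.989).

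Another 99 genes of the pathway, in 5 lists also chosen with earlier results known, were read in the same fit. Their shares beside those of all genes are likewise a description. In females 19 of the 99 were up and 3 down, in males 45 up and 4 down, and 17 were up and 1 was down in both. The shares called, 22.2% in females and 49.5% in males, were near those over all genes (20.2% and 42%), while the shares up were 19.2% and 45.5% against 10.5% and 22.6%. The medians of their log2FC were 0.14 in females and 0.25 in males. None of the 99 was called in the interaction (19 at an unadjusted p under 0.05, 17 of these with the larger log2FC in males, and 3 by DESeq2). Of all genes, DESeq2 called 3.12% in the interaction, and the share at an unadjusted p under 0.05 was not counted.

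Sensors and subunits of the eIF2 switch had the medians nearest 0 of the 5 lists. Of these 18 genes, 0 passed in females (3 at an unadjusted p under 0.05 and 1 by DESeq2), and 3 were up and 3 down in males (33.3% called against 42% of all genes). The 3 up were Eif2s1, the phosphorylated subunit of eIF2 (log2FC 0.30 ± 0.09, padj = 0.03), Eif2b3, a subunit of its exchange factor (0.28 ± 0.09, padj = 0.0303), and Ppp1r15b, the constitutive partner of the eIF2 phosphatase (0.17 ± 0.07, padj = 0.0878). The 3 down were the kinases Eif2ak4 (GCN2, −0.28 ± 0.08, padj = 0.0258) and Eif2ak1 (HRI, −0.18 ± 0.07, padj = 0.0756) and the GCN2 activator Gcn1 (−0.40 ± 0.10, padj = 0.0139), which like Ppp1r15b were picked once their values were known.

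Of 20 amino acid supply targets of ATF4, beside Asns, 5 were up and 1 down in females and 10 up and 0 down in males (0 down at an unadjusted p under 0.05 and 0 by DESeq2). This is 30% and 50% called, against 20.2% and 42% of all genes. The 5 were up in both sexes. Slc7a3, a transporter of basic amino acids, went from a mean of 7.96 to 14.5 normalised CPM in females and from 6.83 to 13.0 in males (log2FC 0.86 ± 0.16 and 0.93 ± 0.16). Mthfd2, a mitochondrial enzyme of folate metabolism, rose by 0.61 ± 0.15 and 0.45 ± 0.15, and Slc1a4, a neutral amino acid transporter, by 0.66 ± 0.13 and 0.38 ± 0.13. Slc3a2, the heavy chain of several amino acid exchangers, rose by 0.35 ± 0.10 and 0.41 ± 0.10, and Psat1 of serine synthesis by 0.27 ± 0.07 and 0.40 ± 0.07. Gpt2, an alanine transaminase named after its value was seen, was the 1 gene down in females (−0.26 ± 0.06, padj = 0.023). The next list held 13 genes, aminoacyl-tRNA synthetases and the tRNA exporter Xpot. Of these, 3 were up in each sex and 0 down (0 down at an unadjusted p under 0.05 and 0 by DESeq2). They were Cars, Gars and Yars in females and Cars, Lars and Tars in males. The share of this list called, 23.1%, was near the 20.2% of all genes in females and under the 42% in males. All of it was up, against 10.5% and 22.6% of all genes up. Cars, which charges the cysteine tRNA, was the 1 gene common to both, at a mean of 28.8 against 43.2 normalised CPM in females and 27.98 against 41.52 in males (log2FC 0.59 ± 0.16, padj = 0.0427, and 0.57 ± 0.16, padj = 0.0227).

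The stress regulators held the largest changes. Of 20 genes, 3 were up and 1 down in females and 11 up and 1 down in males. The female share called, 20%, was that of all genes (20.2%), and the male share was 60% against 42%. Atf3, the injury marker, was at 90.3 and 129 normalised CPM in female sham and 598, 508 and 463 in female axotomy. Male sham libraries held 78.6 and 88.6, and male axotomy libraries 690, 500 and 354. Its rise in every axotomy library (log2FC 2.26 ± 0.27, padj = 0.00125 in females and 2.62 ± 0.27, padj = 4.88e-04 in males) exceeded that of every one of the 10 genes. Gadd45a, a growth arrest gene, rose by 2.08 ± 0.21 and 2.19 ± 0.21, and Eif4ebp1, a repressor of cap-dependent translation, by 0.85 ± 0.18 and 1.20 ± 0.18. Ddit4 (REDD1), a brake on mTORC1, went the other way, from 77.4 and 74.1 to 63.2, 42.5 and 42.2 normalised CPM in females and from 63.3 and 87.9 to 46.7, 38.0 and 59.0 in males. Its groups did not overlap in either sex, and its log2FC was −0.62 ± 0.22 (padj = 0.0892) and −0.66 ± 0.22 (padj = 0.0393).

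Of 28 ER genes driven by XBP1 and ATF6, 8 were up and 1 down in females and 18 up and 0 down in males (0 down at an unadjusted p under 0.05 and 1 by DESeq2). The shares called were 32.1% and 64.3%, against 20.2% and 42% of all genes. The 8 were up in both sexes. Hspa5 (BiP) was at 313 and 306 normalised CPM in female sham and 401, 403 and 422 in female axotomy. It was at 277 and 269 in male sham and 629, 479 and 456 in male axotomy, with no overlap in either sex (log2FC 0.40 ± 0.12, padj = 0.0515, and 0.93 ± 0.12, padj = 8.85e-04). Sdf2l1, a BiP cofactor, rose by 0.75 ± 0.14 and 1.003 ± 0.144, Sec24d, a coat protein of ER export vesicles, by 0.60 ± 0.16 and 0.92 ± 0.16, Manf, a secreted ER protein with neurotrophic activity, by 0.46 ± 0.13 and 0.93 ± 0.13, and the disulfide isomerase Pdia6 by 0.41 ± 0.10 and 0.83 ± 0.10. The 1 gene down in females was Derl3, an ER degradation factor named after its value was seen (−1.27 ± 0.35, padj = 0.0382), which had only 5 to 35 counts per library and was not called down by DESeq2. It was at 0.60 ± 0.31 in males (padj = 0.16). As with Xbp1 itself, the log2FC was larger in males for 27 of the 28 genes, against 10387 of 20836 over all genes tested. The last count takes falls with their sign. Without the sign, changes over all genes tested were larger in males, with a median absolute log2FC of 0.31 against 0.22 in females. The part of this in the lean of the ER genes was not tested. None of the 28 passed the interaction test, with 8 at an unadjusted p under 0.05 and 2 by DESeq2. Of all genes, DESeq2 called 3.12%, and the share at the unadjusted p was not counted. The 28 genes were measured in the same libraries. Markers of other cells were also higher in males than in females after axotomy, 3 of 7 for fibroblasts, 2 of 8 for macrophages, 2 of 5 for satellite glia, 1 of 5 for meninges and 1 of 6 for T and B cells. All 6 myelinating Schwann cell markers were up after axotomy in males and 0 in females. The part of these cells in the result was not tested. After axotomy, 3 of the 99 genes were higher in males than in females, also named after their values were seen. They were Derl3 (log2FC 1.72, padj = 0.0483), Pdia4 (0.38, padj = 0.0913) and the serine synthesis enzyme Phgdh (0.39, padj = 0.0581). Over all genes tested, 1.63% were called in that comparison, with 270 of 20836 higher in males.

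**Figure D4:**
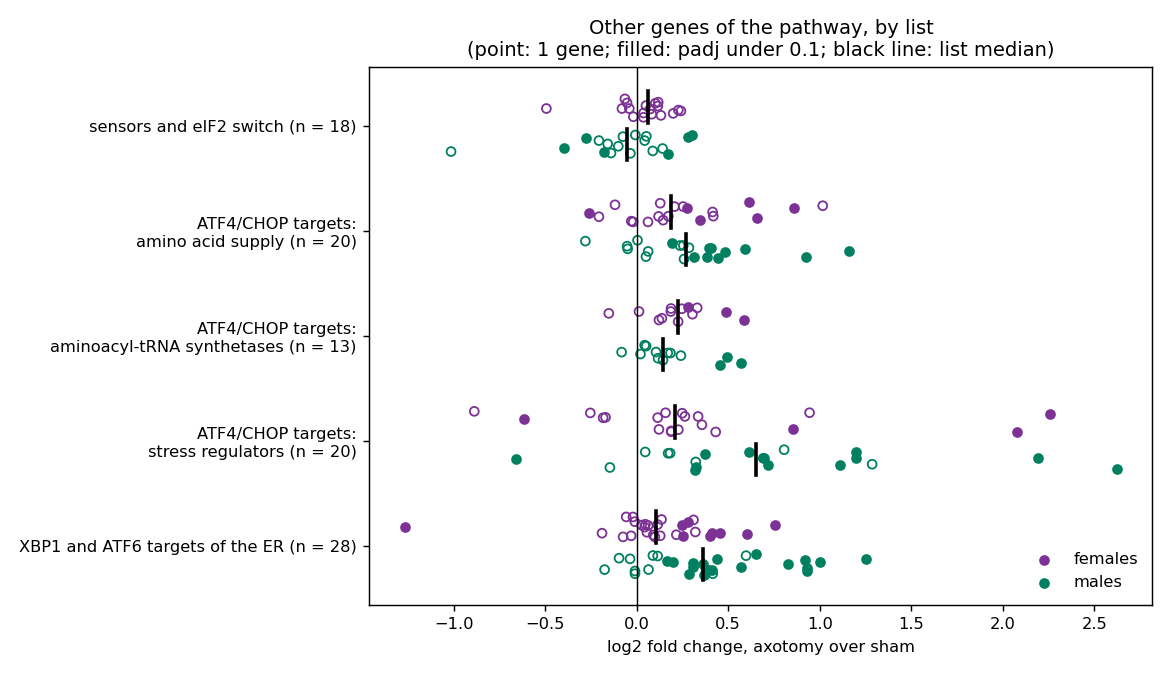
Log2FC of axotomy over sham (horizontal axis) for the 99 other genes in 5 lists, females above and males below in each list, filled where padj was under 0.1 and open where it was not, with a black line at the list median. The ER list has its median at 0.11 in females and 0.36 in males, the stress regulators at 0.21 and 0.65, and the sensors at 0.06 and −0.06.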

How the data were processed

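RNA-seq of 10 DRG libraries was analysed from the authors' deposited quantification. The authors trimmed reads with Trimmomatic 0.39 and ran Salmon 1.3.0 with sequence and GC bias correction on Gencode M27. The deposited values are estimated counts per transcript, not normalized, effective lengths in bases, and TPM, which the authors' Salmon run scaled for length and depth. The sources used here give no strand setting.

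Estimated counts were summed per gene symbol or ID, rounded, and tested in edgeR 4.0.16 (R 4.3.3) with TMM scaling, a length offset, filterByExpr (minimum count 10) and a quasi-likelihood test over all 10 libraries with 4 group means. Benjamini-Hochberg adjustment covered 20836 genes. The common biological coefficient of variation was 0.129. The labels do not say that libraries of a group are separate cohorts beyond pools of 2 mice, so p values measure the spread between these pools. Intervals use the t quantile of the fit. The authors' own model (DESeq2 with batch terms whose settings are not given) was not repeated. DESeq2 1.42.0 was an alternative, beside RLE scaling, no filter, no length offset, each sex alone, a replicate block, a padj of 0.05 and leaving out each library.

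The members and gene lists were chosen with earlier results of these data known. Named list genes were the up to 5 with the largest mean change among those called in both sexes in the same direction, or, where none were, up to 2 called in either sex. The genes most like a member were the 3 protein-coding genes tested, without Gm or Rik symbols, with the highest Pearson's r. Promoters are from RefSeq (GRCm38.p6).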

Additional observations from a re-analysis of the deposited data

How the results depend on the processing

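Across 17 alternative settings (10 of which leave out 1 library each), all 10 genes kept their direction in females, and 9 did in males, where Ern1 ran from −0.032 (without male sham 1) to 0.075 as libraries were left out. Of 8 genes called in females, 5 passed without the low count filter and 5 at a padj under 0.05 (Ddit3, Chac1 and Xbp1 were lost in both), and 0 to 9 as libraries were left out: 0 without either female sham library, 3 without female axotomy 1, 5 without male sham 1 or female axotomy 2. In males 5 to 9 passed, 5 without male sham 1. Over all genes, the female share called was 20.2% in the main fit, 10.3% without the low count filter and 12.3% at a padj under 0.05. It was 9.61% without female axotomy 1, 11.5% without female axotomy 2 and 28.6% with each sex fitted alone. Leaving out any sham library also lowered the share over all genes in both sexes. The female share did not fall without female axotomy 3 (20.5%, 6 of the 10 genes passing) or male axotomy 2 (27.1%, 7 passing). Chac1 lost its female call in 10 settings, Ddit3 and Xbp1 in 8 each, and Asns its male call in 9. Atf4, Ddit3, Trib3 and Xbp1 kept the male call in all 17. Of the 99 pathway genes, 42 passed in females with each sex fitted alone (22 otherwise), 4 (without female sham 2) to 35 (without male axotomy 2) as libraries were left out, with 6 without female sham 1, 12 without female axotomy 1 and 34 without male axotomy 3. In males 26 (without male sham 2) to 56 passed, with 29 without male sham 1. These fits have fewer samples, and a lone sham library is assumed to vary like the other groups.

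None of the 10 genes passed the interaction in any of the 16 settings that gave one (each sex fitted alone gives none), although the calls over all genes went from 15 to 2204 without male axotomy 2 and 536 by DESeq2. Small differences changed sign: without the length offset Ern1 was at 0.011 and Ppp1r15a at 0.015, and as libraries were left out Ern1 ran from −0.103 to 0.02, Ppp1r15a from −0.202 to 0.084, Atf4 from −0.072 to 0.176, Atf5 from −0.075 to 0.133 and Chac1 from −0.019 to 0.616.

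Same-numbered libraries were not treated as paired in the main fit. Over 13 such pairs the residual correlation ran from −0.13 to 0.32. Pairs with different numbers were not read, so these values cannot show whether libraries were paired. With the replicate block Eif2ak3 passed in females (log2FC 0.40, padj = 0.0333). DESeq2 (padj = 0.0896), each sex fitted alone (padj = 0.00702) and leaving out male axotomy 1 (padj = 0.0715) also called it. With 2 sham libraries a sex, small changes are not resolved.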
